A study of Mus musculus with 16 samples.

Results

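The genes described here are 31 mouse genes of cholesterol metabolism, read in white and brown fat of mice that lack the glucocorticoid receptor in adipose tissue and of control mice. They were grouped by function, and the set was drawn up with earlier results of these data known: 18 enzymes of the synthesis route, 4 genes of sterol sensing, 4 of uptake and intracellular transport, and 5 of efflux, storage and the liver X receptors. Array probes were assigned to them through the transcript accession printed for each probe, with current symbols taken from RefSeq, and all 31 were found among the 16675 named genes tested. Their identifiers are given as gene symbols, with genome positions where a promoter is shown.

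Female mice were used, and their total RNA was measured on 16 one-colour Agilent arrays, 4 per group. The groups were white adipose tissue (WAT) of wild-type controls, WAT of mice with an adipose-tissue-specific knockout of the glucocorticoid receptor (GR, gene Nr3c1), and brown adipose tissue (BAT) of each genotype. The labels give no strain, age, Cre driver, deleted exon, WAT depot or treatment, so the stage at which the receptor was lost and the cells that lost it are not given in the sources used here. The labels call the samples of a group biological replicates and do not say which WAT and BAT samples came from 1 animal. Each group had a single array position on each of the 4 slides, so position on the slide and group cannot be told apart.

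Cholesterol is built from acetyl units. The mevalonate branch makes isoprenoid units and joins them to farnesyl diphosphate, a pair of which is condensed to squalene; squalene is oxidised and closed to lanosterol, and the ring is then trimmed and reduced to cholesterol. Transcription of these enzymes is driven by SREBP2 (gene Srebf2), which the escort protein SCAP carries out of the endoplasmic reticulum when sterols are low and which the INSIG proteins hold back when sterols are high. Excess sterol is esterified, exported by ABC transporters, or sensed as oxysterols by the liver X receptors. White adipocytes are known as a large store of unesterified cholesterol, held mostly at the surface of the lipid droplet.

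A level below is the log2 of a probe's processed signal minus the log2 of its array's 75th percentile, so 0 is that percentile; levels of different genes are not compared, because probes differ in response. A change is a difference of mean levels, knockout minus control unless stated. Arrays 1 and 2 of the knockout WAT group differed by no more than spot noise (SD of their log2 difference 0.0832 against 0.0873 expected from repeated spots, a ratio of 0.953, with 2.31 for the next closest pair of a group), so they were averaged and counted as 1 sample. That leaves 15 samples and n = 3 in that group. A gene passed the test where its adjusted p from limma's moderated test, two-sided and adjusted by Benjamini-Hochberg across the 25105 features tested, was under 0.05. All 31 genes were well above background on all 16 arrays, none was saturated, and none lacked a value.

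The targeted gene was lower in every knockout sample. The Nr3c1 level was 1.93 to 2.56 in the 4 WAT controls and 1.36 to 1.64 in the 3 knockout WAT samples, and 2.33 to 2.70 in the 4 BAT controls against 1.30 to 1.76 in the 4 BAT knockouts. The groups did not overlap in either depot, with changes of -0.66 ± 0.19 (SE, limma adjusted p = 0.21) in WAT and -1.03 ± 0.18 (adjusted p = 0.0814) in BAT; whether the probe lies in the deleted part is not given. The tissue labels matched their markers: Ucp1, the uncoupling protein of brown fat, was at 8.21 or above in all 8 BAT samples and at -1.10 or below in all WAT samples, and all 10 adipocyte markers were well above background on every array. Samples within WAT stood apart from each other. Knockout WAT 1-2 and 3 had low adipocyte markers (list level -2.41 and -1.49, the median over 10 genes of the deviation from each gene's mean over samples) and high B-cell markers (5.13 and 4.90), and knockout WAT 4 had 0.78 and -1.26; WAT controls 1 and 4 had intestinal epithelium markers at 5.89 and 4.95, where the other samples were at 0.14 or below. Tissue RNA cannot tell fewer cells of a type from less RNA per cell.

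In brown fat the synthesis enzymes were lower in knockouts along nearly the whole route. Of the 18 enzymes, 17 had a lower mean in knockouts, and in 11 every knockout lay below every control. Their median change was -0.81, beside 0.10 over all genes; the value over all genes was 0.34 with normexp background correction and -0.04 with scaling to the median, and under both of these all 18 enzymes were lower. One of them, Msmo1, passed the test, and 10 were lower at an unadjusted p under 0.05, beside 5.5% of all features. Over all features the adjusted p called 0.00797% lower and 0.00797% higher, and 8.62% of features had every BAT knockout below every control, with 9.35% for the opposite. Of all 31 genes, 14 had every knockout below every control (45.2%) and 0 the reverse, and the 3 that were not synthesis enzymes were Insig1, Insig2 and Npc2.

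**Figure D1:**
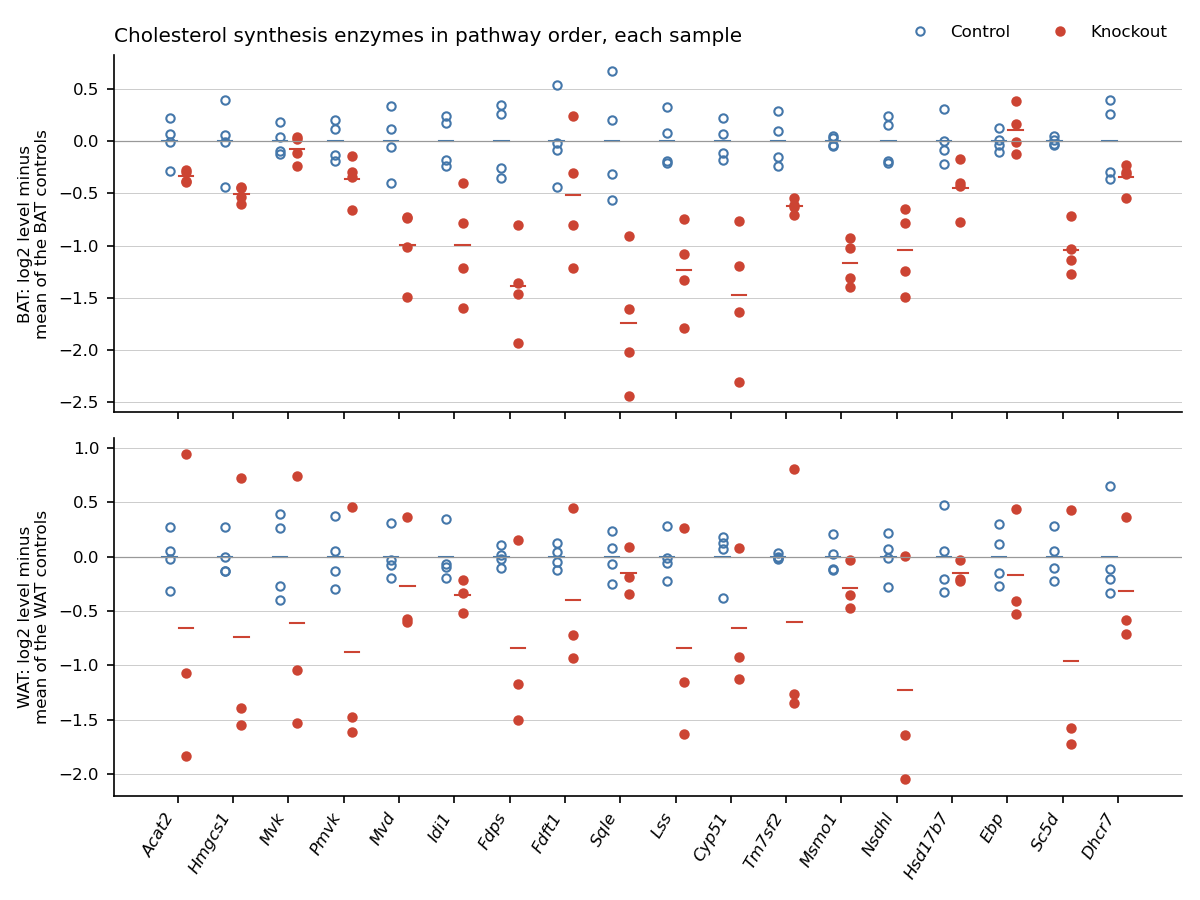
Each point is 1 sample of 1 synthesis enzyme, as the log2 level minus the mean of the control samples of that depot, in pathway order from Acat2 to Dhcr7; open points are controls, filled points knockouts, and short lines are group means. In BAT (upper panel, n = 4 and 4) the knockouts sit below the controls for 11 of 18 enzymes, and in WAT (lower panel, n = 4 and 3) 1 knockout sample, number 4, sits near or above the controls.

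The enzymes from acetyl-CoA to farnesyl diphosphate are 7 here, and all 7 had a lower mean in BAT knockouts, with none past the test. Fdps, which makes farnesyl diphosphate, had levels of 4.09, 4.17, 3.57 and 3.48 in the BAT controls and 1.89, 2.47, 3.02 and 2.37 in the knockouts, replicates 1 to 4 in order here and below. The lowest control stood above the highest knockout, and the change was -1.39 ± 0.33 (SE, limma adjusted p = 0.181). Idi1, the isomerase that supplies the allylic starter unit, was at 3.90, 3.83, 3.47 and 3.41 in controls and at 2.05, 2.44, 3.26 and 2.87 in knockouts. Its groups were also separate, knockout 3 coming closest to the controls, and its change was -0.999 ± 0.24 (adjusted p = 0.182).

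Mvd, the decarboxylase that completes the isoprenoid unit, was at 0.39, 0.62, -0.12 and 0.22 in BAT controls and at -0.45, -0.46, -0.74 and -1.22 in knockouts. Here knockout 4 was lowest and no knockout reached the control range; the change was -0.99 ± 0.26 (limma adjusted p = 0.19). Hmgcs1, the synthase that opens the mevalonate route, also had separate groups, with controls at 5.10 to 5.93 and knockouts at 4.94 to 5.10; the nearest samples of the groups were almost equal. Its change was -0.51 ± 0.39. Acat2 (-0.34), Pmvk (-0.36) and Mvk (-0.07), a thiolase and the kinases of the branch, overlapped between groups.

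The 3 enzymes of squalene synthesis and ring closure all had a lower mean in BAT knockouts, with a median change of -1.24 and none past the test. Sqle, squalene epoxidase, was at 2.53, 3.0, 1.77 and 2.01 in BAT controls and at -0.12, 0.31, 1.41 and 0.72 in knockouts. Every knockout was below every control, and the control range itself spanned more than 1 log2 unit. The change was -1.75 ± 0.32 (a 3.35-fold lower mean; limma adjusted p = 0.099), the largest of the 31 genes in BAT. Lss, which closes the ring to lanosterol, was at 1.94, 2.18, 1.65 and 1.67 in controls and at 0.07, 0.53, 1.12 and 0.78 in knockouts, a change of -1.24 ± 0.34 (adjusted p = 0.194). Fdft1, squalene synthase, overlapped between groups (2.83 to 3.81 in controls, 2.05 to 3.52 in knockouts; change -0.52 ± 0.34).

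Of the 8 enzymes that turn lanosterol into cholesterol, 7 had a lower mean in BAT knockouts and 5 had separate groups. Msmo1, the methyl oxidase that removes the methyl groups at the fourth ring carbon, had tight groups: 2.86, 2.95, 2.87 and 2.94 in controls against 1.60, 1.5, 1.97 and 1.88 in knockouts. The gap between the groups was several times the control SD of 0.0468. Msmo1 fell by 1.17 ± 0.16 on the log2 scale (2.24-fold; limma adjusted p = 0.0487), second by p among all 25105 features. That call is close to the threshold and was lost under 19 of the 27 alternatives, with an adjusted p of 0.178 with the replicate block, 0.42 with normexp background correction and up to 0.211 on leaving out 1 sample. Over those alternatives its adjusted p ran from 0.00943 to 0.772 and its change from -1.31 to -0.98.

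Cyp51, which removes the first methyl group of lanosterol, was at 0.24, 0.39, 0.05 and -0.01 in BAT controls and at -2.14, -1.47, -0.59 and -1.03 in knockouts. Knockouts 1 and 2 were the lowest, as they were for Idi1, Fdft1, Sqle, Lss, Msmo1, Nsdhl and Sc5d. Both arrays also had the lowest 75th percentile signal of the BAT samples, 298 and 320. The change was -1.48 ± 0.32 (limma adjusted p = 0.155), and its other 2 probes gave -1.15 and -1.46. Nsdhl, the dehydrogenase that acts beside Msmo1, was at 2.73, 2.64, 2.29 and 2.28 in controls and at 0.99, 1.24, 1.84 and 1.70 in knockouts, with a change of -1.04 ± 0.36 (adjusted p = 0.251). Sc5d, the desaturase, was at 3.65, 3.62, 3.58 and 3.57 in controls and at 2.33, 2.47, 2.88 and 2.57 in knockouts, with a change of -1.04 ± 0.36 (adjusted p = 0.256). Both had wide gaps between the groups. The test pools the residual spread over all 4 groups, and the SD of Sc5d was 1.20 in WAT knockouts and 0.0378 in BAT controls.

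The remaining ring enzymes had smaller differences. Tm7sf2, a sterol reductase, was at 2.41 to 2.93 in BAT controls and at 1.94 to 2.10 in knockouts (change -0.62 ± 0.36, groups separate). Hsd17b7 (-0.44 ± 0.20) and Dhcr7 (-0.35 ± 0.28), a ketoreductase and the final reductase, overlapped. Ebp, the sterol isomerase, was the exception in direction, though not under normexp or scaling to the median, with 4.47 to 4.71 in controls, 4.46 to 4.96 in knockouts and a change of 0.11 ± 0.22. More than 1 probe was present for 16 of the 31 genes. In BAT, 12 of those 16 had every probe in 1 direction; Fdft1, Soat1, Srebf2 and Stard4 did not, and the second Fdft1 probe, a dim one, gave 0.89.

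The promoters of enzymes that were lower together are shown for the CCAAT boxes that most of them hold. RefSeq windows (GRCm38.p6, 250 bases before to 50 after the start) were matched for 25 of the 31 genes, and Fdps, Fdft1, Sqle, Abcg1, Npc1 and Stard4 had no entry. The box of NF-Y, a factor that works with SREBP at sterol genes (CCAAT, either strand), was present in 14 of 15 synthesis windows and 20 of 25 in all, against 41.1% of 27025 genes. Each line gives 110 bases upstream of the start, 5′ to 3′ in gene orientation, with CCAAT boxes in capitals; in Hmgcs1 the sterol response element TCACCCCAC is in capitals too.
Hmgcs1 (chr13:119690114-119690223, plus strand, bases -237 to -128): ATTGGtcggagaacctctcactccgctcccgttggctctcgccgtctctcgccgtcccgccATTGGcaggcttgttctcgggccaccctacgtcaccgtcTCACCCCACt
Mvd (chr8:122443423-122443532, minus strand, bases -110 to -1): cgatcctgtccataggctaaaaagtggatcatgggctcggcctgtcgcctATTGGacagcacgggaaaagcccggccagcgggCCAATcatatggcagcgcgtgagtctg
Idi1 (chr13:8885496-8885605, plus strand, bases -110 to -1): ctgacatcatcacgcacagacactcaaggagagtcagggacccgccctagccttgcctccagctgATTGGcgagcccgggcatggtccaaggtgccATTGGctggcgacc
Lss (chr10:76531495-76531604, plus strand, bases -110 to -1): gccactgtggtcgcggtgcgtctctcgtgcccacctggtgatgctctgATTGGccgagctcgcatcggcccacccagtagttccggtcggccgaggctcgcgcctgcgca
Cyp51 (chr5:4104698-4104807, minus strand, bases -110 to -1): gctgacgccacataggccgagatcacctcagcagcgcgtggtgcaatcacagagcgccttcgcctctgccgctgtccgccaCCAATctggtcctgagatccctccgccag
Msmo1 (chr8:64733629-64733738, minus strand, bases -160 to -51): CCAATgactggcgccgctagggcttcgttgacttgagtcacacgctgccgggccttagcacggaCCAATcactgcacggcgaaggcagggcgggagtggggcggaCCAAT
Nsdhl (chrX:72918411-72918520, plus strand, bases -110 to -1): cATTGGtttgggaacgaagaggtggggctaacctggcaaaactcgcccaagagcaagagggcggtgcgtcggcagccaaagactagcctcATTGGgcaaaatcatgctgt
Sc5d (chr9:42264301-42264410, minus strand, bases -110 to -1): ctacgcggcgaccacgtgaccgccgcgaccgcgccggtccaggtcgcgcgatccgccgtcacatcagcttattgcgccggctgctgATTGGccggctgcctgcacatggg

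Each stretch was placed upstream of the start where it held the most capitals. Msmo1, the gene past the test, has 3 boxes in its stretch. Hmgcs1, Mvd, Idi1 and Nsdhl have 2 each, and Lss, Cyp51 and Sc5d have 1 each. In the whole window Hmgcs1 and Nsdhl have 4 each, and the other counts stay the same. Box number was not compared with the size of the change. The strict sterol response element TCACNCCAC was found in Hmgcs1 alone among the 25 genes (388 of 27025 genes, 1.44%). The Sp1 box GGGCGG was present in 22 of 25 windows and in 14 of 15 synthesis windows, against 38.2% of genes. An LXR direct repeat (AGGTCA repeated after a 4-base spacer) and a glucocorticoid palindrome (AGAACA facing its mirror across 3 bases) were found in none of the 25, and in 0.0148% and 0.0111% of genes. Both strands were searched; none of these motifs contains another. A match is a description of the letters in the window.

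All 4 sterol-sensing genes had a lower mean in BAT knockouts, 2 of them with separate groups and none past the test. Insig1, which holds SCAP in the endoplasmic reticulum, was at 2.19, 1.75, 2.10 and 2.14 in BAT controls and at 1.18, 1.15, 1.39 and 1.20 in knockouts. Its groups were separate and its change was -0.82 ± 0.45 (limma adjusted p = 0.462). Insig2, its paralogue, was at 2.43 to 2.64 in controls and at 1.24, 1.49, 2.35 and 2.39 in knockouts: knockouts 1 and 2 were far below and knockouts 3 and 4 just below the controls (change -0.67 ± 0.35). Srebf2 (-0.18 ± 0.46) and Scap (-0.01 ± 0.14), the transcription factor and its escort, overlapped between groups.

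Uptake, efflux and storage genes had no common direction in brown fat. Of these 9 genes, 3 had a lower and 6 a higher mean in knockouts, none passed the test, and 1 was higher at an unadjusted p under 0.05, where 7.64% of all features were. That gene was Mylip, the ubiquitin ligase that marks lipoprotein receptors for breakdown and a known liver X receptor target: 2.05, 1.68, 2.53 and 2.39 in controls and 3.14, 2.90, 2.49 and 2.92 in knockouts. Knockout 3 lay inside the control range, and the change was 0.70 ± 0.29 (limma adjusted p = 0.332). Npc2, the soluble lysosomal sterol carrier, was at 5.46 to 5.67 in controls and 5.05 to 5.27 in knockouts (change -0.40 ± 0.30), and Npc1, its membrane partner, overlapped (-0.07 ± 0.22).

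Of the liver X receptor group, Abca1, which exports cholesterol to apolipoprotein A-I, was at 2.93 to 3.28 in BAT controls; knockouts 1 and 2 were at 2.28 and 2.48 and knockouts 3 and 4, at 3.06 and 3.19, lay within the controls (change -0.36 ± 0.30). Abcg1 (0.14), Soat1 (0.39), Nr1h2 (0.07), Nr1h3 (0.03) and the sterol carrier Stard4 (0.16) overlapped. Nr1h2 and Nr1h3 encode the liver X receptors, and Soat1 esterifies cholesterol.

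**Figure D2:**
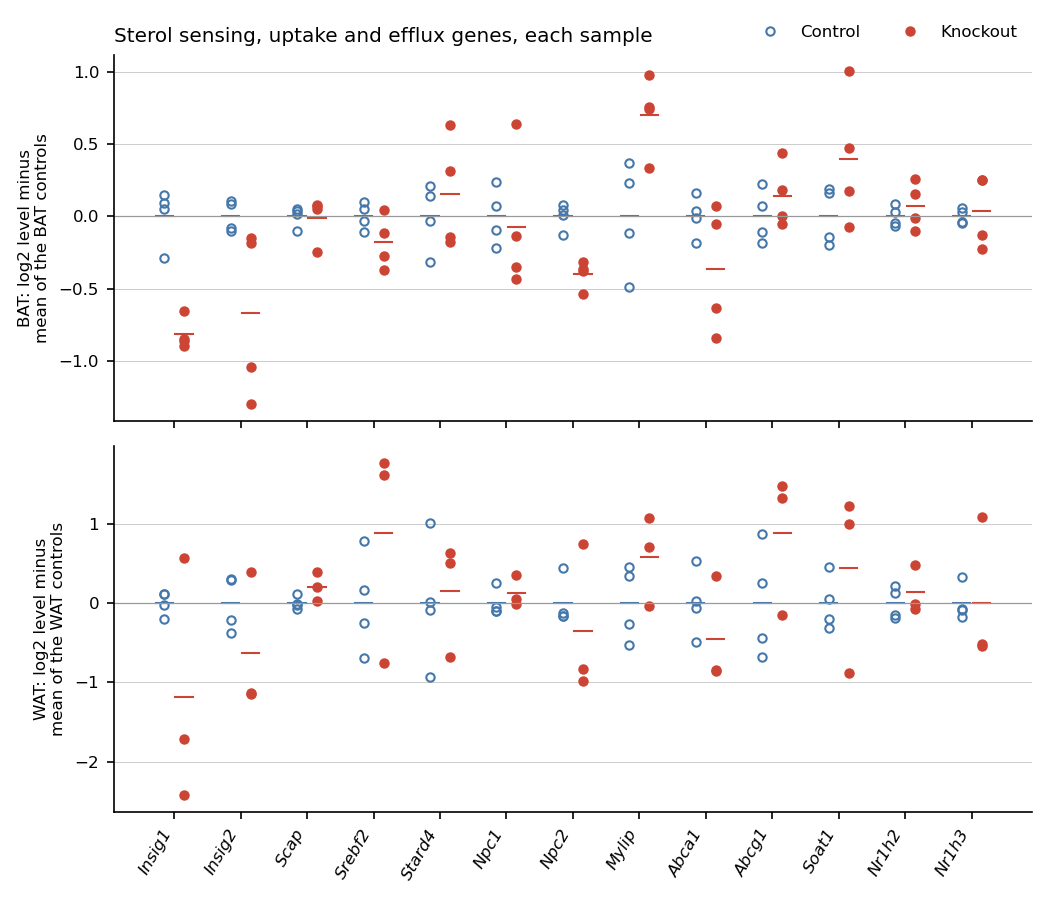
Each point is 1 sample of 1 of the 13 genes of sterol sensing, transport, efflux and storage, as the log2 level minus the mean of the control samples of that depot; open points are controls, filled points knockouts, and short lines are group means. In BAT (upper panel) Insig1, Insig2 and Npc2 have every knockout below every control; in WAT (lower panel) knockout 4 lies apart from the other 2 knockouts for Insig1, Srebf2, Abcg1 and Soat1.

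The synthesis enzyme level, the median over 18 genes of the deviation from each gene's mean, was 0.72, 0.86, 0.51 and 0.49 in BAT controls and -0.28, -0.11, 0.11 and -0.15 in knockouts, with no overlap. Within the 4 slides the number of enzymes lower in the knockout was 17, 13, 17 and 18, with median differences of -1.10, -0.72, -0.74 and -0.56. The adipocyte marker level overlapped between the same groups, at 0.36 to 0.57 in BAT controls and 0.38 to 0.53 in knockouts, with 3 of 10 lower, 7 higher and none past the test. Of these 10, Agpat2, an acyltransferase of triglyceride synthesis, was the exception, at 5.98 to 6.23 in controls and 4.40 to 5.07 in knockouts. Of 6 brown adipocyte markers 5 were higher and 1 lower, none past the test; the lower was Elovl3, a fatty acid elongase, at 3.47 to 4.91 in controls and 0.83 to 2.21 in knockouts. Muscle markers were higher in knockouts for 10 of 10 genes (level -1.06 to 3.02 in controls, 2.48 to 5.22 in knockouts). Endothelial markers were higher for 5 of 5 (0.02 to 0.31 against 0.47 to 1.45). None of either list passed the test. At an unadjusted p under 0.05, 7 muscle and 2 endothelial markers were higher, beside 7.64% of all features. With the muscle level as a covariate the enzyme median, relative to all genes, was -1.05 and 17 of 18 were lower; the part of the endothelial markers was not tested. Without BAT knockouts 1 and 2, whose 75th percentile signal was 298 and 320 beside 486 to 562 in the other BAT samples, it was -0.57 against -0.91 with all samples, and 18 of 18 were lower.

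In white fat all 18 synthesis enzymes had a lower mean in knockouts, and none passed the test. Their median change was -0.61, beside 0.24 over all genes. Among all 31 genes 22 were lower and 9 higher, 0 passed in either direction, and 6 lower and 1 higher had an unadjusted p under 0.05, beside 6.09% and 11.8% of all features. The adjusted p called 0.0398% of all features lower and 0.0199% higher. Idi1 alone had every knockout below every control (1 of 31, 3.2%, with 1.23% of all features), at 2.57 to 3.11 in controls and 2.24 to 2.55 in knockouts. Its second, dimmer probe gave a WAT change of 0.02, against -0.36 for the probe used; of the 16 genes with several probes, it and Fdft1 were the 2 whose probes differed in direction in WAT.

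Knockout 4 did not follow the other 2 knockout samples. Nsdhl was at 1.41, 1.26, 0.91 and 1.17 in WAT controls and at -0.86, -0.46 and 1.19 in knockouts 1-2, 3 and 4 (change -1.23 ± 0.39, limma adjusted p = 0.218). Insig1 was at 0.75, 1.07, 1.07 and 0.93 in controls and at -1.47, -0.76 and 1.52 in knockouts (-1.19 ± 0.48, adjusted p = 0.26). Sc5d was at 4.08, 3.85, 3.58 and 3.69 in controls and at 2.07, 2.22 and 4.23 in knockouts (-0.96 ± 0.39, adjusted p = 0.26). In each, 2 knockout samples were far below the controls and knockout 4 was inside or above their range. Fdps had the same layout, at 2.64 to 2.85 in controls and 1.24, 1.57 and 2.90 in knockouts (-0.84 ± 0.36, adjusted p = 0.265).

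Without knockout WAT 4, which leaves 2 samples in that group, 15 of the 31 genes passed as lower and 4 as higher, beside 15.9% and 20.8% of all features. The 15 held 10 synthesis enzymes, among them Nsdhl (-1.85), Sc5d (-1.65), Pmvk (-1.55), Hmgcs1 (-1.47) and Tm7sf2 (-1.31), and also Insig1 (-2.07), Insig2, Npc2, Abca1 and Nr1h3. The 4 were Srebf2 (1.70), Abcg1 (1.40), Soat1 (1.11) and Mylip (0.88). With all samples, the second, dim probe of Srebf2 gave a WAT change of 0.26, against 0.88 for the probe used. Not every enzyme that was low in BAT knockouts passed without knockout WAT 4: Sqle, Msmo1, Idi1 and Mvd did not pass in WAT. With the same omission the calls in BAT numbered 6 (Msmo1, Sc5d, Fdps, Lss, Sqle and Cyp51), beside 0.171% of features lower and 0.163% higher.

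Adipocyte marker levels went along with these WAT values. For the synthesis enzymes the controls had 0.18, 0.04, -0.18 and -0.16, and knockouts 1-2, 3 and 4 had -1.20, -0.95 and 0.15. The adipocyte marker level, in the same order, was 0.04, 0.12, -0.48 and -0.56 in controls and -2.41, -1.49 and 0.78 in knockouts, with 10 of 10 markers lower in knockouts by the mean, none past the test and none at background. With that level as a covariate the enzyme median, relative to all genes, was -0.31 against -0.85 without it, with 15 of 18 enzymes lower. Within slides, 18, 18, 2 and 17 enzymes were lower in the knockout, and the slide with 2 is that of knockout 4; slides 2 and 4 hold the 2 arrays counted as 1 sample, so these are 3 knockout samples. B-cell markers (7 of 7 higher) ran the opposite way, at -0.38 to 3.68 in controls and 5.13, 4.90 and -1.26 in knockouts, and T and NK cell markers (7 of 7 higher) were at -0.65 to 3.40 and 4.57, 4.34 and -1.34. Mesothelial markers were lower for 4 of 4 genes, 1 past the test, at 3.88 to 5.21 in controls and -0.33, 1.05 and 3.44 in knockouts. Macrophage markers were lower for 7 of 8 genes, 3 with separate groups and none past the test, at a level of 0.97 to 1.85 in controls and 1.21, 1.02 and 0.27 in knockouts; Cd163 had the lowest change, -2.29. The part of these other cell types was not tested. Leaving out the 2 controls with intestinal markers gave a median of -0.85 and 17 of 18 lower.

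**Figure D3:**
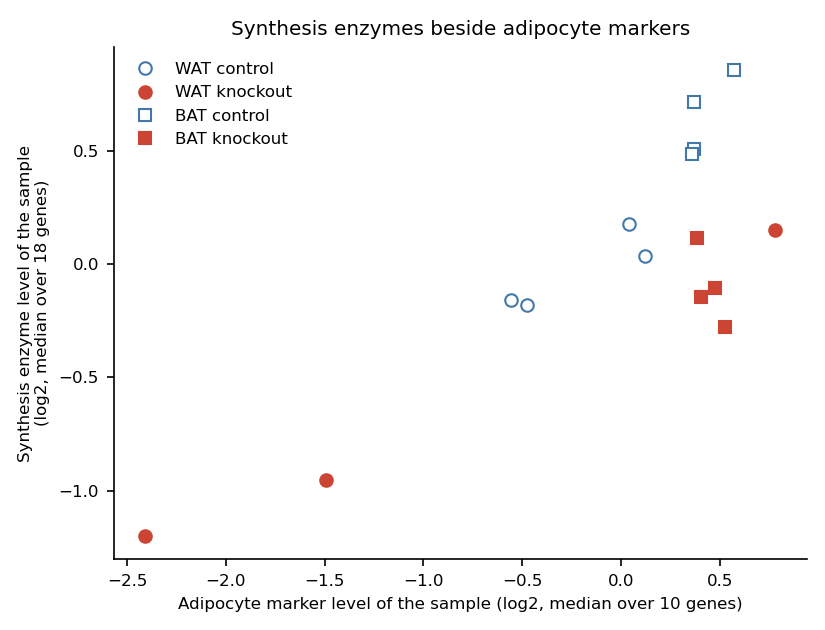
Each point is 1 sample, with the adipocyte marker level (log2, median deviation over 10 genes) on the horizontal and the synthesis enzyme level (log2, median deviation over 18 genes) on the vertical axis; circles are WAT, squares BAT, open controls and filled knockouts. The BAT groups share the marker range 0.36 to 0.57 and are apart on the vertical axis, and the 2 WAT knockouts with marker levels of -2.41 and -1.49 have the lowest synthesis levels.

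The genotype effects of the 2 depots were compared by their interaction (BAT effect minus WAT effect). None of the 31 genes passed, beside 0.0% of features lower and 0.00398% higher, and 2 genes had an unadjusted p under 0.05, both lower, where 5.34% of all features were lower by that rule, a share close to 2 of 31. Sqle was at 1.21, 1.06, 0.88 and 1.36 in WAT controls and 0.94, 0.78 and 1.21 in WAT knockouts, an overlap, where the BAT groups were separate; its interaction was -1.60 ± 0.47 (limma adjusted p = 0.373). Msmo1 was at 3.0, 2.67, 2.67 and 2.81 in WAT controls and 2.43, 2.31 and 2.76 in knockouts, with an interaction of -0.88 ± 0.24 (adjusted p = 0.359, and 0.0339 without knockout WAT 4). Mvd was at 1.19, 0.68, 0.85 and 0.80 in WAT controls and 0.31, 0.28 and 1.25 in knockouts (-0.72 ± 0.38), and Idi1 was at 3.11, 2.57, 2.70 and 2.67 in WAT controls and 2.43, 2.24 and 2.55 in knockouts (-0.64 ± 0.36; -1.17 with the mean over its probes). These 4 had the smallest p of the 31 genes, and at this number of samples a difference between depots was not shown for any of them in the full set.

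**Figure D4:**
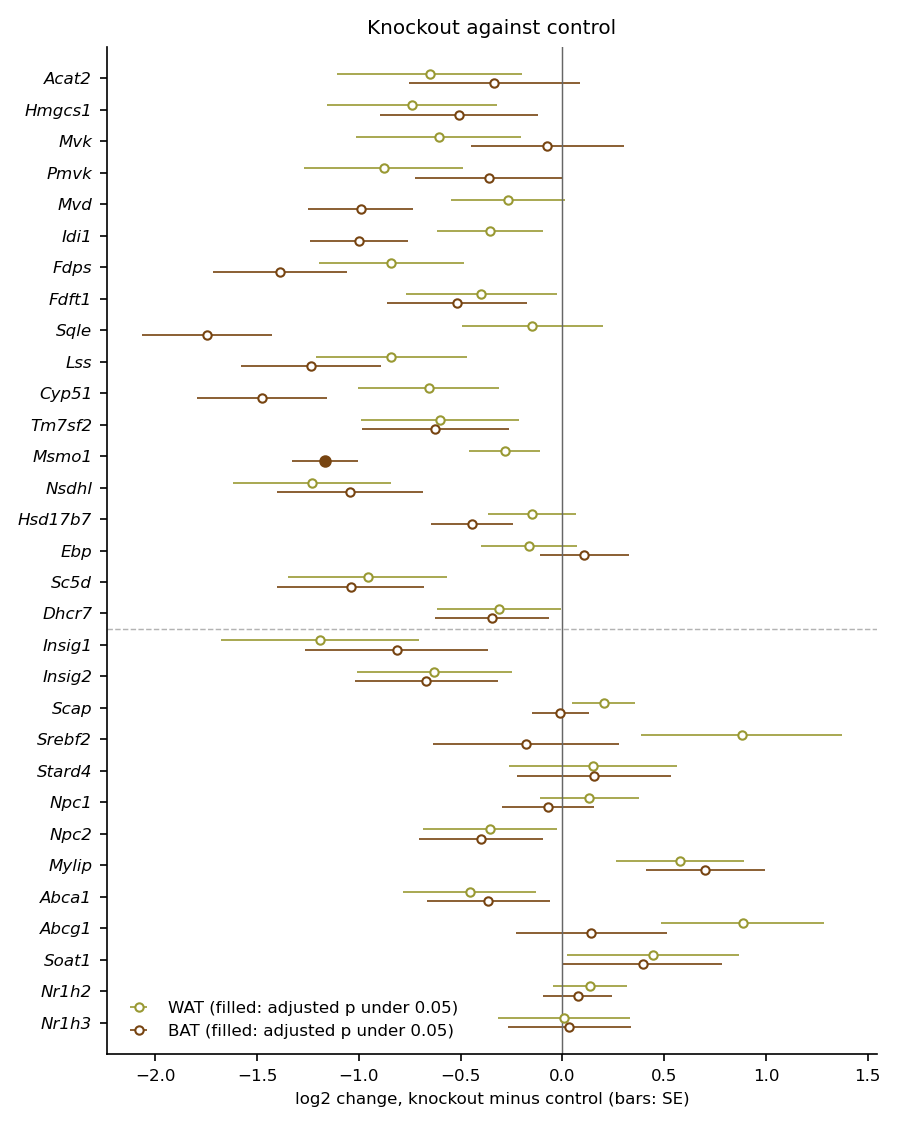
Points are log2 changes, knockout minus control, for the 31 genes in WAT and BAT, bars are standard errors, and a filled point passed the test; the dashed line parts the synthesis enzymes from the other genes. Of the enzymes, 18 lie left of 0 in WAT and 17 in BAT, and Msmo1 in BAT is the only filled point.

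Brown and white fat also differed in this set of genes. In controls 11 of 31 genes were higher in BAT and 2 lower, beside 19.1% and 14.3% of all features; 8 of the 18 synthesis enzymes were higher (44.4%) and 0 lower. The median difference over the enzymes was 0.58, and 0.47 relative to all genes. The higher enzymes were Acat2, Pmvk, Idi1, Fdps, Fdft1, Sqle, Lss and Nsdhl, which are 4 of the 7 enzymes up to farnesyl diphosphate, all 3 of squalene synthesis and ring closure, and 1 of the 8 after lanosterol. Of the other 3 in the mevalonate branch, Hmgcs1 differed by 0.52, Mvk by -0.01 and Mvd by -0.61, none past the test, and every BAT control was below every WAT control for Mvd. The difference is BAT minus WAT throughout, and it uses the samples of the genotype comparisons above.

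Fdft1 was at 1.60, 1.43, 1.36 and 1.52 in WAT controls and 2.83, 3.18, 3.25 and 3.81 in BAT controls, a difference of 1.80 ± 0.34 (limma adjusted p = 0.00118). Its second, dim probe gave 0.12, and the mean over both 0.96 (adjusted p = 0.0256). Acat2, the cytosolic thiolase that makes acetoacetyl-CoA, was at 0.27, 0.50, 0.20 and -0.09 in WAT and 2.25, 2.40, 2.17 and 1.89 in BAT (1.95 ± 0.42, adjusted p = 0.00272). Pmvk was at 4.83, 4.51, 4.16 and 4.33 in WAT and 6.05, 5.96, 5.66 and 5.72 in BAT (1.39 ± 0.36, adjusted p = 0.00903), though 0.77 and not past the test with quantile normalization. All 3 were well apart between depots. Lss was at 0.95, 0.66, 0.45 and 0.62 and Fdps at 2.72, 2.85, 2.64 and 2.76 in WAT controls, below the BAT control values given above. Nsdhl (1.30), Sqle (1.20), Lss (1.19), Fdps (1.08) and Idi1 (0.89) were higher as well, with limma adjusted p from 0.0103 to 0.0211. None of the 8 had overlapping depots, but they were picked by the test, so their separation adds little to it. Without that choice, 9 of the 18 enzymes and 14 of all 31 genes (45.2%) were higher in BAT without overlap. The share of all features was 24.8%.

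Outside synthesis, Soat1, which esterifies cholesterol for storage, had the largest difference, at 0.13, 0.24, 0.89 and 0.50 in WAT controls and -2.98, -2.92, -2.62 and -2.59 in BAT controls. It was 9.31-fold lower in BAT (-3.22 ± 0.39, limma adjusted p = 3.47e-05) by the brightest of its 3 probes. The other 2, each well above background on 2 of the 4 BAT control arrays, gave -1.35 and -1.47; the mean over the 3 was -2.01 (adjusted p = 0.00142), and normexp gave -2.42 for the brightest. Abcg1, which exports cholesterol to lipoproteins, was at 0.58, 0.81, 2.13 and 1.52 in WAT and -0.33, -0.25, -0.07 and 0.09 in BAT (-1.40 ± 0.37, adjusted p = 0.0098). Both are also expressed by macrophages. The macrophage marker level (8 genes) was 1.39, 1.85, 0.97 and 1.01 in WAT controls and -1.10 to -0.79 in BAT controls. Lymphocyte markers were lower in BAT controls too. The B-cell level was 0.38, -0.38, 3.68 and 3.01 in WAT controls and -2.097 to -1.555 in BAT controls. For T and NK cells it was -0.65 to 3.40 and -2.134 to -1.746. The part of these cell types was not tested.

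Npc1, the membrane protein that releases cholesterol from lysosomes, was at -1.71, -1.35, -1.70 and -1.66 in WAT controls and -0.22, -0.35, 0.11 and -0.06 in BAT controls (1.47 ± 0.22, limma adjusted p = 0.000215). Scap was at 3.69, 3.83, 3.64 and 3.71 in WAT and 4.41, 4.27, 4.39 and 4.42 in BAT (0.65 ± 0.14, adjusted p = 0.00289). Nr1h2 was at 1.89, 1.80, 1.5 and 1.53 in WAT and 2.11, 2.13, 2.21 and 2.26 in BAT (0.50 ± 0.17, adjusted p = 0.0347). The last is the least secure of the 13, having lost its call under 11 of 25 alternatives. Quantile normalization left 6 genes higher and 4 lower, where the main fit had 11 and 2. The share of all features called under it is not given here, so an excess over that share is not shown in that setting. With it the enzyme median relative to all genes was 0.17, against 0.47 in the main fit.

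Between the knockout groups 7 of the 31 genes were higher in BAT and 4 lower, beside 16.7% and 13.9% of all features. Soat1 was lower in BAT here too (-3.27 ± 0.42), at 1.66, 1.44 and -0.44 in WAT and -1.78, -2.31, -2.60 and -2.85 in BAT. So was Abcg1 (-2.14 ± 0.40), at 2.74, 2.58 and 1.11 in WAT and 0.30, 0.04, -0.19 and -0.14 in BAT. For Soat1 the other 2 probes gave -1.64 and -2.55. They were well above background on only 1 and 0 of the 4 BAT knockout arrays, so background limits both values. The Soat1 probe used gave -2.32 with normexp and -3.94 without knockout WAT 4. Soat1 and Abcg1 were lower in BAT under all 25 alternatives in either genotype.

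Of the genes higher in BAT than in WAT among knockouts, Acat2 was at -1.61, -0.85 and 1.17 in WAT and 1.90, 1.80, 1.88 and 1.79 in BAT (2.27 ± 0.45). Pmvk was at 2.84, 2.98 and 4.92 in WAT and 5.18 to 5.71 in BAT (1.91 ± 0.39). Npc1 was at -1.61, -1.55 and -1.25 in WAT and -0.48, -0.56, -0.27 and 0.51 in BAT (1.27 ± 0.24). These 3, with Fdft1 and Scap, had no overlap between depots. That is 5 of 31 genes (16.1%), close to the 14.8% of all features. In Acat2, Pmvk and Npc1 knockout WAT 4 came nearest to BAT. Fdft1 was at 0.54, 0.76 and 1.93 in WAT (1.68 ± 0.37), and Nsdhl (1.49 ± 0.39) and Insig1 (1.47 ± 0.48) overlapped through knockout WAT 4. Scap was at 3.91, 3.74 and 4.10 in WAT and 4.45, 4.43, 4.13 and 4.45 in BAT (0.44 ± 0.15, limma adjusted p = 0.042), but under quantile normalization it turned to -0.09 (adjusted p = 0.685), and its call was lost under 18 further alternatives of 25. Mvd (-1.33 ± 0.28, adjusted p = 0.00304) and Msmo1 (-0.76 ± 0.17, adjusted p = 0.00528) were lower in BAT than in WAT among knockouts. In controls Msmo1 had 0.12 ± 0.16 and Mvd -0.61 ± 0.26, neither past the test. The counts move with knockout WAT 4: without it 17 genes were higher and 6 lower, beside 23.8% and 21.8% of all features, and Acat2 was at 3.07, Pmvk at 2.58, Insig1 at 2.35 and Nsdhl at 2.10. Without knockout WAT 1-2 Insig1 was at 0.85 and not past the test, and Acat2 was at 1.68.

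**Figure D5:**
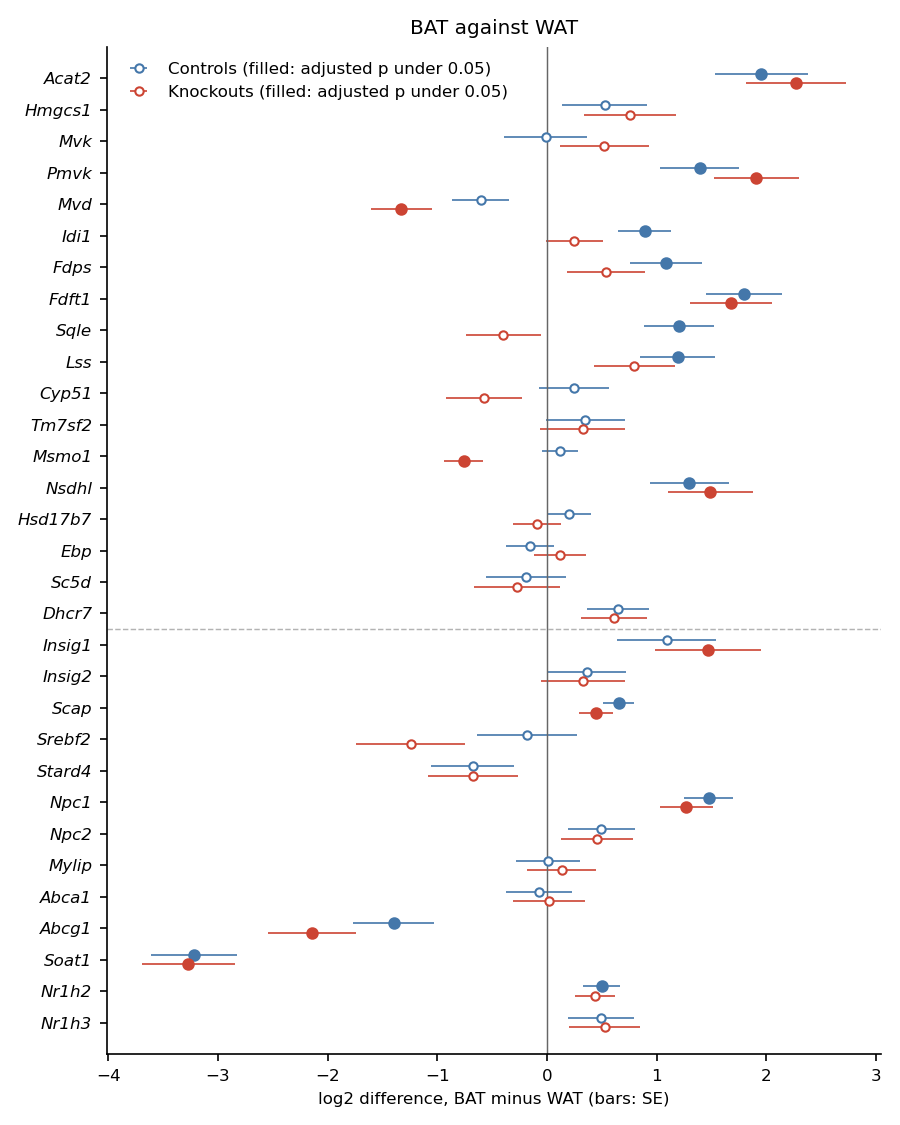
Points are log2 differences, BAT minus WAT, for the 31 genes in controls and in knockouts, bars are standard errors, filled points passed the test, and the dashed line parts the synthesis enzymes from the other genes. Soat1 lies farthest left at -3.22 and -3.27, and Sqle lies at 1.20 in controls and -0.40 in knockouts.

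Neighbouring pathways were read from lists of other genes. Of 8 tested genes that use isoprenoids for other products (ubiquinone, dolichol, protein prenylation), 7 had a lower mean in BAT knockouts and 5 in WAT knockouts, none past the test, with medians of -0.18 and -0.04. The 2 of smallest p in BAT were Pdss1, which builds the ubiquinone side chain (-0.53 ± 0.18), and Ggps1, which makes geranylgeranyl diphosphate (-0.32 ± 0.12). Of 18 other sterol-handling genes, 8 were lower and 10 higher in BAT and 10 lower and 8 higher in WAT, none past the test, with Stard5, a sterol carrier (-0.58 ± 0.15), and Lpcat3, a phospholipid acyltransferase under liver X receptor control (-1.02 ± 0.37), of smallest p in BAT.

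The fatty acid synthesis list (10 genes), which the related factor SREBP1 drives, had a median of -0.51 in BAT knockouts, with 8 lower, and -1.39 in WAT knockouts, with 10 lower, none past the test. In BAT 7 of the 10 were lower with separate groups, beside the 8.62% of all features given above, but Fasn, the fatty acid synthase, was at 0.30 ± 0.29 there. In WAT Pnpla3, a lipid droplet acylhydrolase (-1.61 ± 0.50), and Acss2, which activates acetate (-1.82 ± 0.58), had the smallest p. These lists overlap neither with each other nor with the 31 genes.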

How the data were processed

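The files are scanner output of 16 one-colour Agilent arrays, which the authors deposited as intensity values per spot; per the file headers they come from Agilent Feature Extraction 12.0.0.7, whose processed intensity is already background-corrected. No genome build was needed for the values. Flagged spots were left out, spots of a probe were averaged, and log2 of the processed intensity minus log2 of each array's 75th percentile gave the level. Control spots stayed out. The accession of each probe was matched to RefSeq genes (GRCm38.p6), which named 28223 of 41174 probes; the probe of highest mean level stands for a gene. Probes well above background on at least 3 of 4 arrays of a group were kept (16675 genes and 8430 unnamed probes). limma 3.58.1 in R 4.3.3 fitted the 4 group means with 11 residual degrees of freedom, and the same fit gave every comparison. It was run on simulated data in which a gene had the same SD in all 4 groups. That run does not cover unequal spread, as seen for Sc5d above. p-values measure the spread between these samples, and the number of arrays limits the precision.

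Per-sample values are given for genes past the test in a comparison and for those of smallest adjusted p (10 in BAT, 4 in WAT and in the interaction, 6 between control depots). The genes and lists were chosen with earlier results of these data known. The alternatives were normexp background correction, quantile and median scaling, other filters and probe rules, slide or replicate number as a block, only the groups compared, all 16 arrays as samples, and each sample left out. Leaving out BAT knockouts 1 and 2 or WAT controls 1 and 4, and marker levels as covariates, were added after the data were seen. The series' value table was not used here.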

Additional observations from a re-analysis of the deposited data

Results flagged for a closer look

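In 96 groups of 4 samples (31 genes and the synthesis enzyme level in 3 groups each), 3 held 1 sample far from the other 3, its gap to the nearest being over 0.829 of the whole range; chance flags about 1 group in 20. Npc2, the soluble lysosomal sterol carrier, was at 5.54 in WAT control 2 and at 4.93 to 4.97 in the other controls, a gap of 0.942 of the range. Npc1, its membrane partner, was at -1.35 in the same sample and at -1.71 to -1.66 in the others, a gap of 0.864 of the range. Scap, the SREBP escort, was at 4.13 in BAT knockout 3 and at 4.42 to 4.45 in the others, a gap of 0.925 of the range. The knockout WAT group, with 3 samples, was not examined in this way.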

How the results depend on the processing

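Across 27 alternatives the synthesis enzyme median relative to all genes stayed below 0 in both depots, from -1.13 (normexp) to -0.571 (without BAT knockouts 1 and 2) in BAT and from -1.43 to -0.306 (adipocyte covariate) in WAT. Leaving out 1 sample gave -0.983 to -0.719 in BAT and -1.43 to -0.457 in WAT. The single call in BAT, Msmo1, became 0 calls under normexp, median scaling, no filter, the slide block, the muscle covariate and without BAT knockouts 1 and 2, and 0 to 6 calls on leaving out 1 sample. The replicate block also gave 0 calls in BAT. Between control WAT and BAT, deviations of same-numbered samples correlated at 0.0513 to 0.177, each the highest for its WAT control. Between knockout WAT and BAT they correlated at -0.266 to 0.121. Whether replicate numbers pair samples is not known, and outside that block the depot comparisons treated samples as unpaired. Leaving out 1 sample gave 0 to 15 calls lower and 0 to 4 higher in WAT, and 0 to 2 lower and 0 to 6 higher for the interaction, the higher value always without knockout WAT 4. The interaction median, 0.04, turned to -0.388 with normexp and ran from -0.311 to 0.485 on leaving out 1 sample. Between depots, quantile normalization gave 6 higher and 4 lower in controls and a median of 0.169, normexp 0.913 and the mean over probes 0.668. Leaving out 1 sample gave 8 to 17 higher in controls. For these control counts the shares of all features are not given here. In knockouts, fitting only these groups gave 3 higher, leaving out 1 sample 4 to 17 higher with medians of 0.184 to 1.07, and Scap turned to -0.0856 with quantile normalization. The cause of these changes was not tested. For the 42 single-gene results named, 1074 values under an alternative were computed. Of these, 991 kept the direction and side of the threshold, 72 lost the call, 10 gained one and 1 turned. Leaving out a sample of a group outside a comparison cannot move its change, so part of the 991 was fixed in direction. The 991 also include results that did not pass in either setting. With 4 arrays a group and 3 in 1, small differences were not detectable.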
